A study of Mus musculus with 36 samples.

Results

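The adrenergic receptor genes are the 7 genes with the symbols Adra1a, Adra1b, Adra1d, Adra2a, Adra2b, Adra2c and Adrb1 among the 19025 genes listed for every library. All 7 symbols were found, each with 1 entry. Their levels were measured by RNA-seq of brain tissue from C57 mice aged 6 to 7 weeks, in 36 libraries. The labels name 6 brain regions (VTA, SN, STR, Nac, PFc and HP), each with 3 libraries from wild-type mice (WT) and 3 from knock-in mice (KI). By the series title the knock-in is a synonymous change in Maoa, whose product monoamine oxidase A degrades noradrenaline and serotonin; the labels give no treatment and no sex. The labels do not spell these out. To choose marker genes that check them, VTA was read as ventral tegmental area, SN as substantia nigra, STR as striatum, Nac as nucleus accumbens, PFc as prefrontal cortex and HP as hippocampus. Nor do they state that a group's libraries are different animals, and every p-value therefore refers to library-to-library spread, which could be technical.

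Adrenergic receptors are the G protein-coupled receptors for noradrenaline and adrenaline. Noradrenaline in the forebrain is released largely by axons of the locus coeruleus, a brainstem nucleus. The receptors are made by the neurons and glia that noradrenaline axons reach, and also by the noradrenaline neurons themselves. The alpha-1 receptors (Adra1a, Adra1b, Adra1d) couple to Gq proteins and phospholipase C, the alpha-2 receptors (Adra2a, Adra2b, Adra2c) couple to Gi proteins and lower cyclic AMP, and the beta-1 receptor (Adrb1) couples to Gs and raises it. Adra2a and Adra2c also act as autoreceptors that restrain noradrenaline release.

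The genes lie on 5 chromosomes of GRCm38.p6. Adra1a (gene 11549) spans 66635251 to 66771240 on chromosome 14, Adra1b (11548) spans 43774605 to 43901250 on chromosome 11, and Adra1d (11550) spans 131545357 to 131562497 on chromosome 2. These alpha-1 genes have introns: their coding transcripts in GENCODE have 3 to 4, 2 to 5 and 2 exons. Adra2a (11551; chromosome 19, 54045259 to 54048982) has 1 or 2 exons in those transcripts. Adra2b (11552; chromosome 2, 127363179 to 127367221), Adra2c (11553; chromosome 5, 35278566 to 35281763) and Adrb1 (11554; chromosome 19, 56722117 to 56725150) have 1. The deposited transcript table holds 12 transcripts of Adra1a, 3 of Adra1b and 1 of each other gene. Of the Adra1a counts the largest transcript took 38.4% over the 36 libraries, but between 0% and 94.8% in single libraries, so only the gene's summed level is used here. For Adra1b the main transcript took 92.5%.

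The 3 alpha-2 genes code for closely related receptors, and their highest WT means lay in different regions (Adra2a in SN, Adra2b in STR, Adra2c in Nac). The 250 bases before their transcription starts are printed for that reason (RefSeq, GRCm38.p6, all on the plus strand, 5′ to 3′). In each of these genes the libraries of the top region overlapped those of the next region. Without the WT libraries set apart below, Adra2a was highest in VTA instead. Capitals mark each match to the GC box GGGCGG or its reverse complement. The windows are chr19:54045009-54045258, chr2:127362929-127363178 and chr5:35278316-35278565 in the same order.
Adra2a: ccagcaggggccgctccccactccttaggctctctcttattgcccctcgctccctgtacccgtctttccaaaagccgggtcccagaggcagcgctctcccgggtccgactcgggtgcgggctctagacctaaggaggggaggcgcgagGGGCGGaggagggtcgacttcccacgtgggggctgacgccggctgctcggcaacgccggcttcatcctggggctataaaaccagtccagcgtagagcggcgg
Adra2b: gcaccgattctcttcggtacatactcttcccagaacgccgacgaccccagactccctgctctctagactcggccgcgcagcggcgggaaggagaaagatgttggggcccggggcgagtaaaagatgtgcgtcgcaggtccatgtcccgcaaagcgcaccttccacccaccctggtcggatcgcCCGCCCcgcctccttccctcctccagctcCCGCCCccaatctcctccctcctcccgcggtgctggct
Adra2c: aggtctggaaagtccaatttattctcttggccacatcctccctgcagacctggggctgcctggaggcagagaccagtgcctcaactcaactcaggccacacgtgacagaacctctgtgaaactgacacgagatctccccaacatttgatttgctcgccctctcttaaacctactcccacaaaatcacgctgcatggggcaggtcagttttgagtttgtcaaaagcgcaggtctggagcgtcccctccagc
The Adra2a window holds 22 CG dinucleotides and 1 GC box, and the Adra2b window 23 and 2. The Adra2c window holds 6 CG dinucleotides, which is also the median of the 32851 mouse promoters in the table, and no GC box match. A GC box match on either strand was present in 32.7% of all promoters of that length. TATAAA matched once, in Adra2a, against 12.4% of all promoters. The Adrb1 window had 24 CG dinucleotides, and the 2 start sites listed for Adra1b had 22 and 3. These matches describe the letters only. Adra1a and Adra1d are named only, with no promoter shown.

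The libraries held 15145631 to 18863503 estimated counts each, with a mean of 17879355 ± 469730 in WT and 16411870 ± 691160 in KI (SD, n = 18 each). Before any result, each library's region label was set against marker genes, as the mean log2 CPM of its region's list of 10 genes, all found (CPM is the count divided by the library total as scaled by edgeR's TMM factors). In 8 libraries the own list lay below the midpoint of that list's range: 2 of 18 WT and 6 of 18 KI. Library WT VTA 3 had a midbrain dopamine list of 0.95, against 6.03 and 6.89 in the other WT VTA libraries, and a striatum list of 7.97; the dopamine transporter gene Slc6a3 had 10 counts in it, against 10362 and 4211. WT Nac 2 had a striatum list of 3.93 and a dopamine list of 5.71. Among KI libraries, HP 2 and SN 2 had striatum lists of 8.63 and 8.65, Nac 2 had a hippocampus list of 5.59, Nac 1 a dopamine list of 7.20, SN 1 a dopamine list of 0.52 with a hippocampus list of 3.60, and STR 3 a striatum list of 4.96. They are called set apart below, and the main results they touch are given with and without them. All WT and KI STR libraries also had a thalamus list between 5.47 and 6.72 and a choroid plexus list between 5.78 and 8.17. KI PFc 1 had a striatum list of 7.04, and KI SN 3 one of 5.92. Maoa itself ran from 34.1 to 79.6 CPM (median 47.7) in the 18 WT libraries and from 37.9 to 95.9 (median 51.0) in the 18 KI libraries, with no call by edgeR in any region. Over all regions, with region as a term and without the set-apart libraries, Maoa was called higher in KI, by 0.18 ± 0.05 (log2, SE; adjusted p = 0.010, edgeR). A synonymous change cannot be read from these counts, so this level checks no label.

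Per length, the mix of receptors varied between WT regions, though no test of the mix was run. In TPM, as deposited, which corrects for transcript length, the 7 genes summed to 142.6 in HP, 121.4 in PFc, 85.9 in STR, 74.7 in Nac, 60.8 in SN and 59.3 in VTA (means of 3 libraries). Adra1d made up 61.1% of that sum in HP and 32.6% in PFc, where Adrb1 followed with 20.2% and Adra1b with 16.8%. In Nac, Adra2c took 38.6% and Adra2a 23.9%. In STR, Adra2c took 30.4% and Adra1b 24.1%. In SN, Adra2a led with 31.0% and Adra1b followed with 17.7%. In VTA, Adra2c took 31.2% and Adra2a 28.2%. In Nac and in VTA 1 of the 3 WT libraries is set apart. Without VTA 3, Adra2a led in VTA with 38.6%, Adra1b followed with 22.9% and Adra2c took 14.1%. Without Nac 2, Adra2c took 48.4% in Nac, Adra2a 20.3% and Adra1b 6.83%, down from 12.7%. With all libraries, Adra2b was the lowest of the 7 in HP, PFc, Nac, SN and VTA, with at most 2.09% of the sum there (2.56% in Nac without Nac 2), and reached 3.12% in STR, where Adra1a was lowest at 1.84%. These are bulk tissue values, in which fewer cells of a type and less RNA per cell cannot be told apart.

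**Figure D1:**
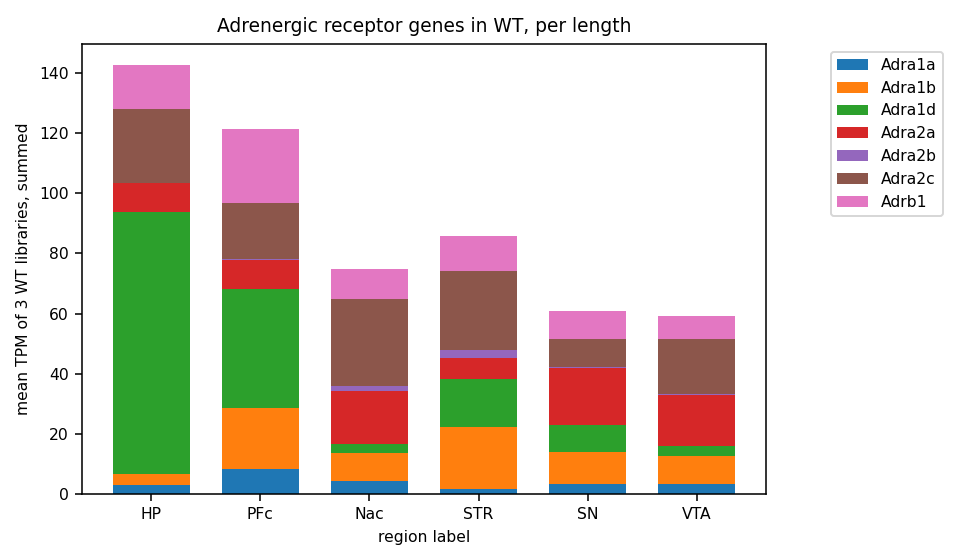
Summed TPM (vertical axis, linear) of the 7 adrenergic receptor genes in the 6 WT regions, each block the mean of 3 libraries. The Adra1d block fills most of the HP bar (61.1%) and shrinks to 3.82% of the Nac bar, while the Adra2a block is tallest in SN, Nac and VTA.

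Across the 6 WT regions, 6 of the 7 receptor genes differed by edgeR's quasi-likelihood F test, with Benjamini-Hochberg adjustment over all genes and a threshold of 0.05. That test called 48% of the 15094 genes tested, so a call was common. Adjusted p was 1.4e-05 for Adra1d, 0.00030 for Adra2b, 0.00046 for Adra1a, 0.0044 for Adra2a, 0.0091 for Adra1b and 0.015 for Adrb1. Adra2c, at 0.31, was not called with all 18 libraries. Without the set-apart libraries WT Nac 2 and WT VTA 3 all 7 were called, Adra2c at 0.00035, where 70% of genes were. Leaving out WT VTA 3 alone gave Adra2c an adjusted p of 0.030, and leaving out PFc 1 or PFc 2 took Adrb1 to 0.051 or 0.068.

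Adra1a, an alpha-1 receptor, stood highest in PFc. The 3 WT PFc libraries gave 43.6, 38.3 and 37.9 CPM, and the 3 WT STR libraries 7.80, 7.69 and 9.50. No WT library of another region reached the PFc values, the highest being Nac 3 at 25.8 CPM. The order of the WT means was PFc 39.9 ± 3.20, Nac 21.0 ± 7.67, SN 17.2 ± 3.72, VTA 17.0 ± 5.37, HP 13.8 ± 4.07 and STR 8.33 ± 1.01 CPM (SD, n = 3). Of neighbours in that order, PFc and Nac did not overlap, and all others did. Against the mean of the other regions, Adra1a was higher in PFc by 1.43 ± 0.20 (log2, SE; adjusted p = 0.00019, edgeR) and lower in STR at -1.25 ± 0.25 (adjusted p = 0.0024).

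Adra1b, also an alpha-1 receptor, was high in STR and PFc and low in HP. WT STR libraries gave 18.4, 29.9 and 45.2 CPM, WT PFc libraries 27.9, 29.9 and 29.4, and WT HP libraries 2.79, 7.23 and 6.61. The STR values spread over a wide range that includes all 3 PFc values. In the same order these STR libraries had thalamus lists of 5.47, 6.52 and 6.72. What part those lists have in the Adra1b level in STR was not tested. The WT means were STR 31.1 ± 13.5, PFc 29.1 ± 1.05, SN 16.3 ± 1.82, VTA 15.2 ± 7.27, Nac 13.8 ± 9.57 and HP 5.54 ± 2.40 CPM, and PFc and SN were the only neighbours that did not overlap. Adra1b was called higher in PFc (1.03 ± 0.34, adjusted p = 0.036) and STR (1.17 ± 0.34, adjusted p = 0.023), and lower in HP (-1.84 ± 0.44, adjusted p = 0.0046), all by edgeR. The PFc call was lost without any 1 of the 3 PFc libraries (adjusted p 0.10 to 0.11) or STR 2 (0.053), and the STR call without STR 2 (0.070) or STR 3 (0.18). The 2 set-apart libraries held values unlike their groups: Nac 2 had 24.5 CPM, against 6.12 and 10.8 in Nac 1 and Nac 3, and VTA 3 had 6.77, against 19.1 and 19.6. Without them Adra1b was also called lower in Nac (-1.03 ± 0.32, adjusted p = 0.044).

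Adra1d had the widest range of WT means among the alpha-1 genes. WT HP libraries gave 107, 92.9 and 96.4 CPM, and WT PFc libraries 49.4, 46.7 and 36.5. In WT Nac the values were 3.48, 3.88 and 2.53 CPM. HP exceeded PFc, and PFc exceeded STR, without overlap. The WT means were HP 98.9 ± 7.50, PFc 44.2 ± 6.79, STR 19.2 ± 9.48, SN 10.7 ± 7.89, VTA 4.14 ± 2.57 and Nac 3.30 ± 0.69 CPM, and neighbours from STR down overlapped. Adra1d was called higher in HP by 3.24 ± 0.30 (log2, adjusted p = 2.8e-06, edgeR) and in PFc by 1.85 ± 0.33 (adjusted p = 0.00091). It was called lower in Nac (-2.65 ± 0.47, adjusted p = 0.012) and VTA (-2.25 ± 0.45, adjusted p = 0.012). The Nac call was lost without Nac 1 (0.072) or Nac 3 (0.099), and the VTA call without VTA 2 (0.079), but without both set-apart libraries both calls stood, at -2.84 ± 0.52 (adjusted p = 0.0026) and -1.85 ± 0.47 (adjusted p = 0.0074).

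Adra2a, the alpha-2A autoreceptor and postsynaptic receptor, had WT region means that fell into a higher and a lower set. SN libraries gave 28.1, 26.6 and 42.8 CPM, VTA libraries 41.7, 33.3 and 17.3, and Nac libraries 37.0, 33.5 and 21.1. STR libraries gave 9.09, 15.8 and 11.8. The lowest VTA value is that of the set-apart VTA 3, while the set-apart Nac 2 lies between the other Nac libraries. VTA 3 lies below PFc 1 at 19.4 and HP 1 at 17.5 CPM, so the 2 sets overlapped by library. The means were SN 32.5 ± 8.90, VTA 30.8 ± 12.4 and Nac 30.5 ± 8.39 CPM, then PFc 15.9 ± 3.69, HP 15.8 ± 1.67 and STR 12.2 ± 3.40, and Nac and PFc were the neighbours without overlap. With all libraries Adra2a was called only as lower in STR (-0.94 ± 0.26, adjusted p = 0.018, edgeR), a call lost without STR 1 (0.11) or STR 3 (0.070). With those 2 libraries left out it was called higher in VTA (0.92 ± 0.22, adjusted p = 0.0046) and SN (0.68 ± 0.19, adjusted p = 0.017) and lower in STR (-0.97 ± 0.22, adjusted p = 0.0038), PFc (-0.58 ± 0.21, adjusted p = 0.039) and HP (-0.56 ± 0.21, adjusted p = 0.043). Leaving out VTA 3 alone was enough for the HP, PFc, SN and VTA calls (adjusted p 0.036, 0.040, 0.031 and 0.0094), and the SN call also appeared without Nac 2 (0.038) or VTA 1 (0.040).

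Adra2b, the alpha-2B receptor, was the rarest of the 7 per length in every WT region but STR. The WT STR libraries held 72, 107 and 118 counts (3.87, 5.45 and 6.23 CPM), and the WT Nac libraries 92, 17 and 51 counts (5.16, 0.92 and 2.87 CPM). The WT HP libraries held 1, 1 and 0 counts. Apart from these, WT PFc libraries held 3 to 10 counts, SN libraries 3 to 22 and VTA libraries 3 to 20, the 20 in the set-apart VTA 3. The lowest Nac value is that of the set-apart Nac 2. Adra2b was called higher in STR by 3.54 ± 0.49 (log2, adjusted p = 0.00013, edgeR) and in Nac by 2.55 ± 0.52 (adjusted p = 0.029), and lower in HP (adjusted p = 0.0029, with too few counts there for a size). The Nac call was lost without HP 1 (0.051), HP 3 (0.055), Nac 1 (0.23) or Nac 3 (0.11). In the fit without the set-apart libraries Adra2b stood at 3.74 ± 0.35 in STR (adjusted p = 3.5e-06) and 3.28 ± 0.40 in Nac (adjusted p = 0.00014), and was also called lower in VTA (-1.98 ± 0.75, adjusted p = 0.049). The neighbouring means of STR and Nac overlapped library by library.

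Adra2c, the alpha-2C receptor, was called in no WT region with all libraries, and in 4 regions without the 2 that stand apart. WT Nac libraries gave 51.5, 10.8 and 65.7 CPM, the 10.8 in the set-apart Nac 2. WT VTA libraries gave 10.7, 12.8 and 61.5, the 61.5 in the set-apart VTA 3. WT HP libraries gave 41.2, 35.3 and 29.6, and WT SN libraries 12.1, 19.4 and 10.7. Thus the VTA library with a high striatum list carried an Adra2c level within the range of Nac 1 and Nac 3, and the Nac library with a high dopamine list carried one within the range of SN. The means over all 3 libraries were Nac 42.7 ± 28.5, STR 40.5 ± 22.5, HP 35.4 ± 5.78, VTA 28.3 ± 28.7, PFc 26.3 ± 4.06 and SN 14.1 ± 4.68 CPM, and PFc and SN were the only neighbours without overlap. Without the set-apart libraries Adra2c was called higher in Nac (1.37 ± 0.26, adjusted p = 0.0028) and STR (0.75 ± 0.23, adjusted p = 0.024), and lower in VTA (-1.44 ± 0.33, adjusted p = 0.0038) and SN (-1.12 ± 0.27, adjusted p = 0.0073), by edgeR. Within STR the level was not even: STR 1 gave 66.3 CPM with a thalamus list of 5.47, and STR 2 and STR 3 gave 25.4 and 29.8 with thalamus lists of 6.52 and 6.72. What part those lists have in the spread was not tested.

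Adrb1, the beta-1 receptor, was highest in PFc, as Adra1a was. The PFc libraries gave 33.3, 35.6 and 28.6 CPM, above every other WT library. The order of WT means was PFc 32.5 ± 3.60, HP 19.3 ± 2.16, STR 17.0 ± 4.45, Nac 13.8 ± 4.81, SN 13.2 ± 6.91 and VTA 11.3 ± 4.59 CPM, and below PFc every neighbour overlapped. Adrb1 was called higher in PFc by 1.15 ± 0.25 (log2, adjusted p = 0.0036, edgeR). The VTA libraries gave 8.68, 8.58 and, in the set-apart VTA 3, 16.6 CPM. Without the set-apart libraries Adrb1 was also called lower in VTA (-1.14 ± 0.28, adjusted p = 0.0062), and leaving out VTA 3 alone gave an adjusted p of 0.026.

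**Figure D2:**
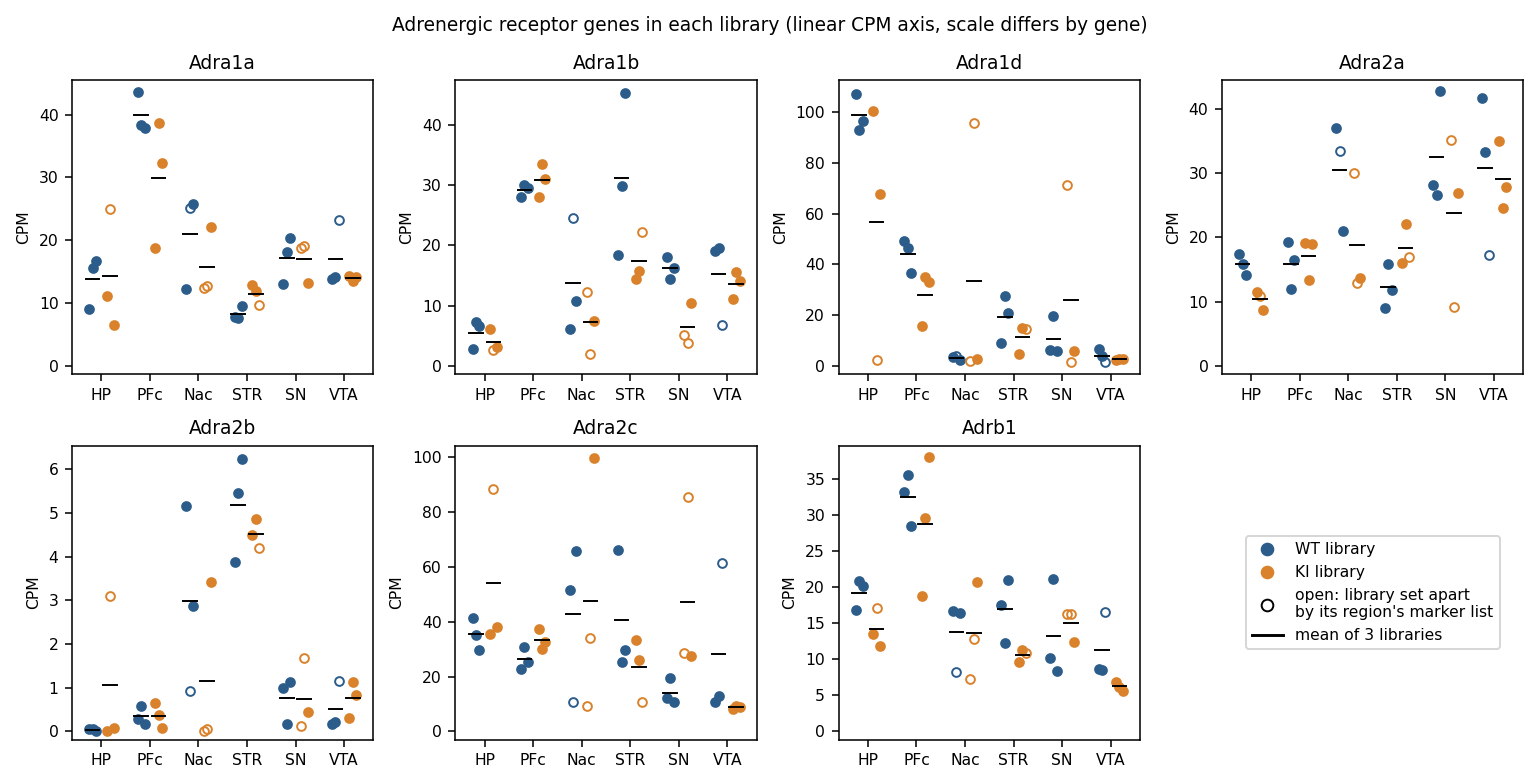
CPM (vertical axis, linear, own scale per gene) of each receptor gene in all 36 libraries by region, WT blue and KI orange, with a bar at the mean of 3 libraries and open circles for the 8 set-apart libraries. Open circles lie far from their groups for Adra1d (KI HP 2 at 2.25, KI Nac 2 at 95.6 and KI SN 1 at 71.2 CPM) and Adra2c (WT VTA 3 at 61.5, KI HP 2 at 88.3 and KI SN 2 at 85.6 CPM).

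By region, the count of called receptor genes can be read against the share of all 15094 genes called in the same direction. HP had 1 receptor gene higher (Adra1d) and 2 lower (Adra1b, Adra2b), where 17.6% of genes were called higher and 16.7% lower. PFc had 4 higher (Adra1a, Adra1b, Adra1d, Adrb1) and 0 lower, against 16.1% and 12.4%. Nac had 1 higher (Adra2b) and 1 lower (Adra1d), against 0.914% and 0.285%. STR had 2 higher (Adra1b, Adra2b) and 2 lower (Adra1a, Adra2a), against 12.6% and 8.16%. SN had none, where 4.7% of genes were called higher and 3.21% lower. VTA had 1 lower (Adra1d), where 4.45% were called higher and 3.16% lower. In either direction, the fit without the set-apart libraries called 5 receptor genes in VTA, 2 in SN, 5 in STR, 4 in Nac, 5 in PFc and 4 in HP, and the share of all genes called was 39.1%, 27.3%, 30.2%, 16.1%, 42.5% and 45.9% in that order.

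**Figure D3:**
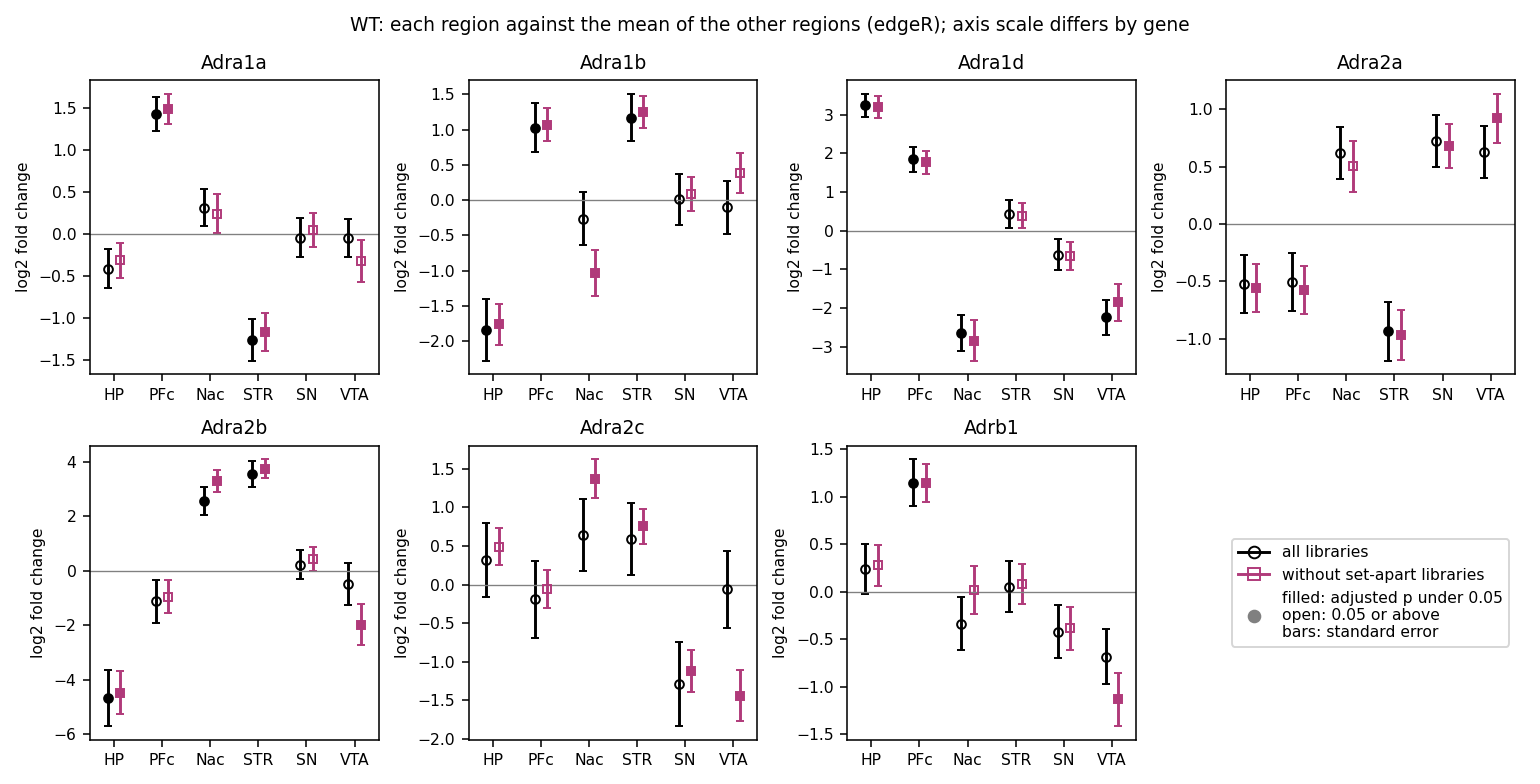
Log2 fold change (vertical axis, own scale per gene) of each WT region against the mean of the other regions with its standard error, with all 18 libraries (black circles) and without the 2 set-apart libraries (squares); filled symbols have an adjusted p under 0.05. Adra1d runs from 3.24 in HP to -2.65 in Nac, and the Adra2c symbols turn from open to filled in Nac, STR, SN and VTA when the 2 libraries are left out.

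The receptor genes were also compared with all other genes by the Pearson correlation of log2 CPM over the 36 libraries, among the 12634 genes (12635 for Adra2b) that averaged 1 or more in log2 CPM. The libraries fall into regions, so such a correlation mostly describes a shared regional pattern and carries no p-value. Most like Adra1d were Faah, which degrades the endocannabinoid anandamide, Ccbe1 and Rtn4r, the Nogo receptor (r = 0.96, 0.95 and 0.94). Most like Adra2c were C2cd2l, Bcr and Smpd3, a sphingomyelinase (0.96, 0.96 and 0.95). For Adra1b they were Zdhhc22, a palmitoyltransferase gene, Deptor, an inhibitor of mTOR, and the potassium channel gene Kcnk3 (0.96, 0.88 and 0.87). For Adrb1 they included the potassium channel gene Kcnf1 and the transcription factor gene Mef2c (0.94 and 0.93). For Adra1a they included Rnf217 and Cdyl2 (0.88 and 0.86), and Adra2b was most like Pcp4l1, Gtf2ird1 and Scube3 (0.88, 0.87 and 0.87). Adra2a, whose best matches were weakest, was most like Dner, Smoc1 and Oprl1, the nociceptin receptor (0.85, 0.84 and 0.83). Between receptor genes, the lowest value was -0.67, for Adra2a and Adra2c, and the highest 0.61, for Adra2c and Adrb1.

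**Figure D4:**
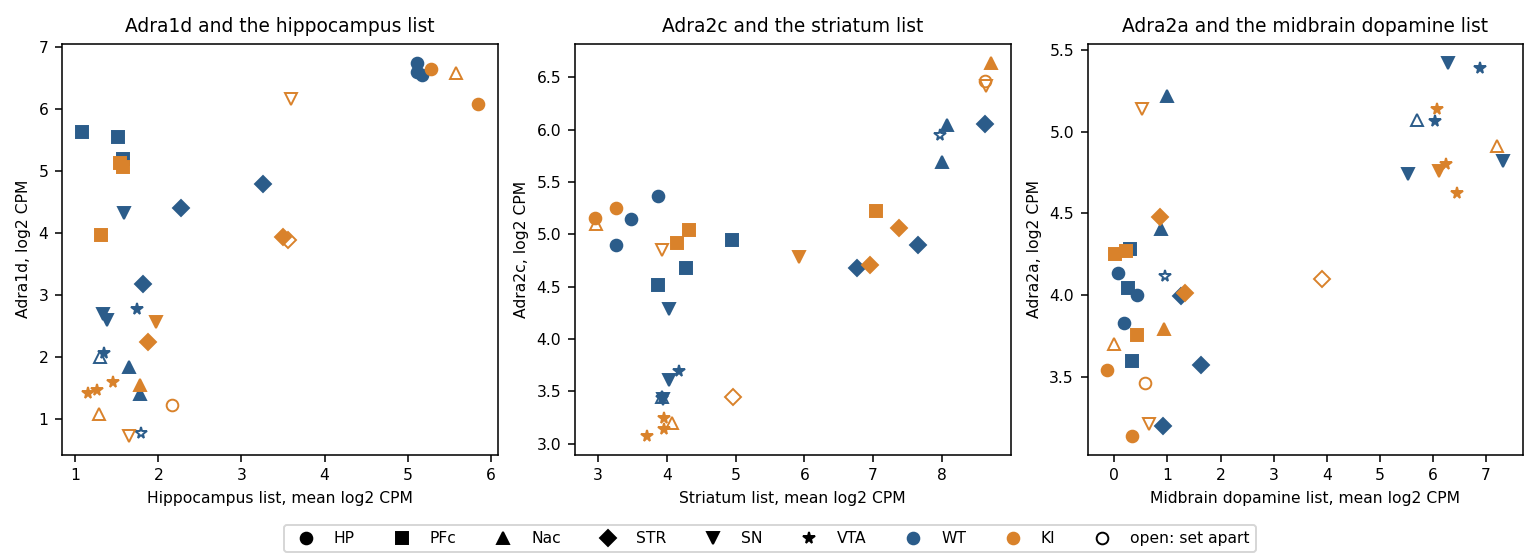
Log2 CPM of Adra1d, Adra2c and Adra2a (vertical axes) against the mean log2 CPM of the hippocampus, striatum and midbrain dopamine marker lists (horizontal axes) in 36 libraries, WT blue and KI orange, symbols by region label, set-apart libraries open. The KI libraries Nac 3, HP 2 and SN 2, with striatum lists of 8.71, 8.63 and 8.65, hold the 3 highest Adra2c values, 99.7, 88.3 and 85.6 CPM, under 3 different region labels.

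Between genotypes, no receptor gene was called by edgeR in any region, over all regions or for genotype by region. The test called 0% of genes in each of these comparisons: 0 of 14490 in VTA, 0 of 14418 in SN, 0 of 14658 in STR, 0 of 14333 in Nac, 0 of 14167 in PFc, 0 of 14144 in HP, 0 of 16171 over all regions and 0 of 15367 for genotype by region. In that order 1879, 2531, 1580, 146, 2562, 2012, 3210 and 1341 genes had an unadjusted p under 0.05, and DESeq2 called 185, 990, 210, 2, 362, 259, 1356 and 33 (1.25%, 6.26%, 1.38%, 0.0112%, 2.74%, 2.2%, 8.88% and 0.174% of those it tested). Adra2b passed the filter on low counts in Nac, STR, SN, VTA and the sums but not in HP or PFc, so 6 receptor genes were tested there. For genotype by region the adjusted p of the 7 genes lay between 0.56 and 0.75, and without the set-apart libraries between 0.22 and 0.90. Without those libraries edgeR called 0.42% of genes in HP, 5.72% in VTA, 0.051% for genotype by region and 0% in Nac, STR and SN, and still no receptor gene.

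In SN, Adra1b and Adra2c differed most. For Adra1b the WT libraries gave 18.1, 14.4 and 16.3 CPM and the KI libraries 5.12, 3.84 and 10.4. For Adra2c the WT libraries gave 12.1, 19.4 and 10.7 CPM and the KI libraries 28.8, 85.6 and 27.4. In both genes the groups did not overlap, which was also so for 24% of the genes tested in SN. The log2 difference was -1.33 ± 0.37 for Adra1b and 1.75 ± 0.48 for Adra2c, with an adjusted p of 0.16 for each by edgeR. DESeq2, which called 6.26% of genes in SN, called both (adjusted p = 0.017 and 0.0077), and the authors' deposited table gives them q-values of 0.019 and 0.0086. The first 2 KI libraries, SN 1 and SN 2, are set apart, with dopamine lists of 0.52 and 0.65 against 5.52 to 7.33 in WT SN, and SN 2 with a striatum list of 8.65. Slc6a3 had 18 and 13 counts in them, against 4628 to 19368 in WT SN. With KI SN 3 as the lone KI library, whose spread is then taken to be that of the WT libraries, the differences were -0.64 ± 0.23 and 0.97 ± 0.35, each with an adjusted p of 0.45. Leaving out KI SN 3 instead gave Adra1b -1.87 and a call by edgeR (adjusted p = 0.029). Adra1d was at 1.28 ± 1.19 with all libraries and -0.87 ± 0.76 with KI SN 3 alone. KI SN 3 itself had a striatum list of 5.92, against 3.94 to 4.04 in WT SN. Drd1, a gene of that list, was at 17.4 CPM in it, against 2.63 to 3.70. How much of any of these differences goes with the tissue in the KI SN libraries, SN 3 included, was not tested.

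In VTA, Adra2c and Adrb1 lay lower in all 3 KI libraries than in any WT library; the groups did not overlap for 23.9% of the genes tested there. Adra2c gave 8.31, 9.37 and 8.73 CPM in KI against 10.7, 12.8 and, in the set-apart VTA 3, 61.5 in WT. Adrb1 gave 6.87, 6.21 and 5.62 CPM in KI against 8.68, 8.58 and 16.6 in WT. With all libraries the log2 differences were -1.67 ± 0.68 and -0.83 ± 0.30 (adjusted p = 0.38 and 0.37), and without WT VTA 3 they were -0.38 ± 0.14 and -0.43 ± 0.16 (adjusted p = 0.13 and 0.12). Thus the Adra2c difference shrank most when that library was left out, and both kept their sign. Adra1d gave 2.56, 2.65 and 2.93 CPM in KI against 6.75, 4.07 and 1.61 in WT, with -0.58 ± 0.48 in all libraries and -0.96 ± 0.26 (adjusted p = 0.059) without VTA 3, whose own Adra1d value was the lowest of the 6. Adra2b had 5, 20 and 14 counts in KI against 3, 4 and, in VTA 3, 20 in WT, and without VTA 3 its log2 difference was 2.02 ± 0.69 (adjusted p = 0.10, edgeR). Adra1b and Adra2a moved from -0.13 ± 0.39 and -0.05 ± 0.32 with all libraries to -0.47 ± 0.15 and -0.33 ± 0.17 without VTA 3 (adjusted p = 0.085 and 0.22).

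In HP, Adra2a lay lower in every KI library than in any WT library. It gave 11.6, 10.9 and 8.70 CPM in KI against 17.5, 15.9 and 14.1 in WT, and 23.9% of the genes tested in HP likewise had groups that did not overlap. The log2 difference was -0.61 ± 0.17 (adjusted p = 0.30, edgeR) and, without the set-apart KI HP 2, -0.65 ± 0.17 (adjusted p = 0.084). Adrb1 gave 13.5, 17.2 and 11.8 CPM in KI and 16.8, 20.9 and 20.1 in WT, with differences of -0.45 ± 0.18 (adjusted p = 0.35) and, without HP 2, -0.61 ± 0.15 (adjusted p = 0.078). KI HP 2 held the farthest value of the 3 KI libraries for 4 other receptors: 2.25 CPM for Adra1d against 100 and 67.8, 88.3 for Adra2c against 35.6 and 38.0, 25.1 for Adra1a against 11.2 and 6.49, and 51 counts of Adra2b against 0 and 1. With it the Adra2c difference was 0.61 ± 0.37, and without it 0.05 ± 0.14. Adra1a went from 0.05 ± 0.50 to -0.64 ± 0.28 (adjusted p = 0.23), Adra1b from -0.49 ± 0.46 to -0.26 ± 0.39, and Adra1d from -0.82 ± 0.97 to -0.24 ± 0.16.

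In STR, 3 receptor genes did not overlap between genotypes, against 17.6% of genes tested there. Adra1a gave 12.9, 11.9 and 9.71 CPM in KI and 7.80, 7.69 and 9.50 in WT. Adra2a gave 16.0, 22.1 and 17.0 CPM in KI and 9.09, 15.8 and 11.8 in WT. Adrb1 went the other way, with 9.70, 11.3 and 10.9 in KI and 17.6, 12.2 and 21.1 in WT. The log2 differences were 0.48 ± 0.18 for Adra1a, 0.60 ± 0.22 for Adra2a and -0.67 ± 0.21 for Adrb1 (adjusted p = 0.41, 0.41 and 0.37, edgeR). Without the set-apart KI STR 3 they were 0.58 ± 0.17, 0.64 ± 0.25 and -0.69 ± 0.25, and none was called. Adra1b, Adra1d and Adra2c overlapped between the groups, at -0.82 ± 0.32, -0.73 ± 0.50 and -0.79 ± 0.46, and without KI STR 3 at -1.04 ± 0.35, -0.95 ± 0.58 and -0.45 ± 0.41.

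In PFc, where no library is set apart, Adra1d lay lower in every KI library, with 15.6, 35.0 and 33.2 CPM against 49.4, 46.7 and 36.5 in WT. Its groups did not overlap, as for 28.4% of genes tested, and the log2 difference was -0.64 ± 0.29 (adjusted p = 0.29, edgeR). The lowest value, 15.6, is that of KI PFc 1, the library with a striatum list of 7.04, which was also lowest for Adra1a (18.8 CPM, against 38.7 and 32.3 in the other KI libraries) and Adrb1 (18.8, against 29.6 and 38.0). Without KI PFc 1 the Adra1d difference was -0.36 (adjusted p = 0.15, edgeR). Adra1a and Adra2c were at -0.40 ± 0.24 and 0.37 ± 0.16.

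In Nac, where 3 of the 6 libraries are set apart, no receptor gene was separated between the groups, against 4.1% of genes tested. Adra1d gave 2.01, 95.6 and 2.81 CPM in KI and 3.48, 3.88 and 2.53 in WT. The 95.6 belongs to KI Nac 2, whose hippocampus list was 5.59, near the 5.11 to 5.17 of WT HP. The fitted difference of 3.34 ± 1.48 (adjusted p = 0.9998, edgeR) became -0.10 ± 0.40 without the set-apart libraries. Adra2c gave 9.09, 34.1 and 99.7 CPM in KI, and its difference went from 0.16 ± 0.93 to 0.76 ± 0.18 (adjusted p = 0.48). Adra1a, Adra1b and Adra2a were at -0.41 ± 0.37, -0.94 ± 0.74 and -0.69 ± 0.40 with all libraries, and at 0.22 ± 0.47, -0.18 ± 0.41 and -1.09 ± 0.41 without those set apart, which leaves KI Nac 3 as the lone KI library. Adrb1 and Adra2b went from -0.02 ± 0.44 and -1.36 ± 1.48 to 0.31 ± 0.14 and -0.24 ± 0.48.

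Over all regions, counts summed per title number and genotype gave Adra1b a log2 difference of -0.50 ± 0.13 (adjusted p = 0.10, edgeR). DESeq2, which called 8.88% of genes on the same sums, called Adra1b (adjusted p = 0.012). Its KI mean was the lower in HP, Nac, STR, SN and VTA and the higher in PFc. Adra1a, Adra1d, Adra2a and Adrb1 were at -0.20 ± 0.14, -0.21 ± 0.15, -0.24 ± 0.15 and -0.29 ± 0.12, none called. The sums include the set-apart libraries, which are 6 of 18 in KI and 2 of 18 in WT. What part these libraries have in the summed differences was not tested. With region as a term and without the 8 set-apart libraries, edgeR called 17.2% of genes, and of the receptors Adra1d, at -0.65 ± 0.21 (adjusted p = 0.035), while Adra1b stood at -0.39 ± 0.15 (adjusted p = 0.080). That fit takes the libraries of different regions as independent, which the labels do not state.

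**Figure D5:**
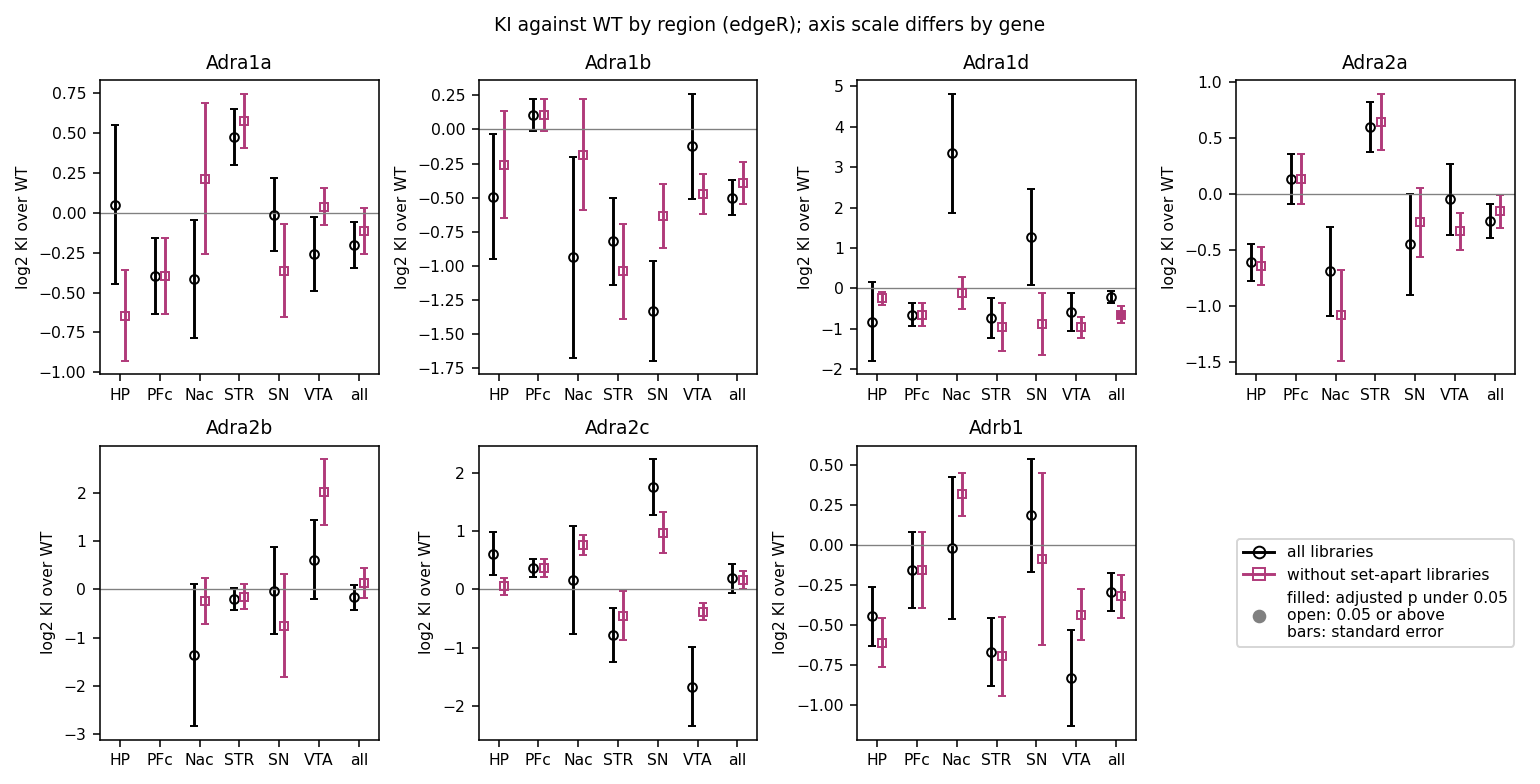
Log2 KI over WT (vertical axis, own scale per gene) of each receptor gene by region and over all regions, with standard errors, with all libraries (black circles) and without the set-apart libraries (squares; over all regions the circles are the summed counts and the squares the fit with region as a term); filled symbols have an adjusted p under 0.05. The only filled symbol is Adra1d over all regions at -0.65, and Adra1d in Nac moves from 3.34 to -0.10.

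The other genes of the pathway were taken from 2 lists, 18 genes that make, store, take up or break down noradrenaline or mark its neurons, and 50 genes of receptor signalling. Between genotypes, with all libraries, edgeR called none of either list in any comparison, with 11 to 17 of the first and 49 to 50 of the second tested. At an unadjusted p under 0.05 there were 0 to 6 of the first and 0 to 17 of the second. In SN, DESeq2 called 3 of 17 of the first and 7 of 50 of the second, beside 6.26% of all genes. Over all regions it called 2 of 15 and 11 of 50, beside 8.88%. In the other comparisons it called at most 2 of either list, beside 0.0112% to 2.74% of all genes. These DESeq2 fits include the set-apart libraries, in SN the KI libraries SN 1 and SN 2. Without the set-apart libraries edgeR called 3 of 16 noradrenaline genes in VTA, beside 5.72% of all genes. These were Slc6a2, the noradrenaline transporter (3.29 ± 0.58), Dbh (3.95 ± 0.76) and the monoamine transporter gene Slc29a4 (-0.49 ± 0.11), named after their values were seen. Few counts lay behind Slc6a2 and Dbh. Slc6a2 had 17, 17 and 21 counts in KI VTA, against 1 and 3 in WT VTA 1 and VTA 2. Dbh had 15, 14 and 17, against 2 and 0. Among WT SN libraries Slc6a2 had 18 to 98 counts and Dbh 11 to 92. In the fit without the set-apart libraries 3 of 50 signalling genes were called higher and 6 lower in VTA. The only other calls without those libraries were 1 signalling gene for genotype by region, Hcn2, beside 0.051% of all genes, and, over all regions with region as a term, 3 of 17 noradrenaline genes (Maoa and Qdpr higher, Cyb561 lower) and 16 of 50 signalling genes (6 higher, 10 lower), beside 17.2% of all genes. In SN 2 of 15 noradrenaline genes had the higher mean in KI (median log2 difference -0.36, against 0.02 over all genes), where the set-apart KI SN 1 and SN 2 also had low dopamine lists, which share Th, Ddc and Slc18a2 with this list. With KI SN 3 as the lone KI library, 7 of 16 had the higher mean in KI and the median was -0.14. Across WT regions 14 of 16 noradrenaline genes and 34 of 50 signalling genes were called by the F test, beside the 48% of all genes, and without the set-apart libraries 15 of 16 and 47 of 50, beside 70%. Th, the first enzyme of catecholamine synthesis, had 240 ± 179 CPM in SN and 0.50 ± 0.30 in HP, and Qdpr, which recycles its cofactor, 645 ± 134 in VTA and 211 ± 39.4 in HP. Dbh, the enzyme that makes noradrenaline from dopamine, stood at 2.71 ± 2.25 CPM in SN and at most 0.66 ± 0.52 in the other regions. Slc22a3, a low-affinity transporter of noradrenaline, and Cyb561 had their highest means in STR (6.48 ± 1.34 and 109 ± 9.61 CPM), and the neuropeptide gene Gal in VTA (5.40 ± 4.58). These WT means include the set-apart Nac 2 and VTA 3, and Nac 2 held the highest WT Dbh value outside SN, 1.24 CPM. For Dbh, Slc22a3, Cyb561 and Gal the region with the highest mean overlapped another region by library.

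Of the signalling genes, 21 of 50 were called higher and 1 lower in PFc, 12 higher and 11 lower in HP, 3 higher and 13 lower in STR, 0 higher and 6 lower in VTA, 0 higher and 1 lower in SN, and none in Nac, beside the shares of all genes called in each region given above. Without the set-apart libraries the counts were 30 higher and 2 lower in PFc, 21 and 15 in HP, 8 and 16 in STR, 9 and 23 in VTA, 7 and 14 in SN, and 15 and 8 in Nac, where 42.5%, 45.9%, 30.2%, 39.1%, 27.3% and 16.1% of all genes were called in either direction. The median log2 difference of the list in PFc was 0.39, against -0.02 over all genes. Adcy2, an adenylyl cyclase that makes cyclic AMP, gave 220 ± 19.8 CPM in PFc and 75.4 ± 5.20 in STR, and Grk3, a kinase that desensitises receptors, 168 ± 14.2 and 50.1 ± 16.3. Gnaq, the Gq subunit used by alpha-1 receptors, was highest in HP at 357 ± 22.4 CPM and lowest in STR at 140 ± 18.9. Adcy9 was also highest in HP (157 ± 17.3 CPM), while Gnaz, a Gi family subunit, was highest in PFc (95.1 ± 1.97 CPM). Rgs7, a regulator of G protein signalling, overlapped between PFc and HP (92.7 ± 1.54 and 91.0 ± 4.55 CPM) and lay at 45.6 ± 5.91 in VTA.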

How the data were processed

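RNA-seq of 36 mouse brain libraries was analysed: 6 regions, 2 genotypes and 3 libraries per group. The kit was SMARTER mRNA-seq, per the labels' protocols, and the genome build GRCm38.p6, per the submitters' processing notes. How reads were aligned and counted, and whether by strand, is not given in the sources used here. Estimated counts per gene and transcript were deposited, and 9.88% of the gene values were not whole; these were rounded to whole numbers before any test. The authors deposited TPM values too, used for levels between genes. Per the file headers, the deposited comparisons give q-values and log2 fold changes made with DESeq2. A further 180 per-sample columns were not used. The gene table has no row without a gene name. Of its 19025 gene identifiers 18969 matched RefSeq, whose coordinates are given.

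Genes were kept by filterByExpr, scaled by TMM, and tested by the quasi-likelihood test of edgeR 4.0.16, Benjamini-Hochberg adjusted over all genes tested, threshold 0.05. Each region's KI and WT libraries were fitted alone; counts summed per title number served for all regions; a 12-group fit served genotype by region; the 18 WT libraries served the region tests. Group values are CPM as mean ± SD; log2 CPM used a prior count of 2. The members, marker lists and pathway lists were chosen with earlier results of these data known. Always named were the 7 receptor genes, the 6 members of each pathway list with the smallest adjusted p of the F test, and the 3 genes most correlated with each receptor gene; some genes that this rule named are not reported here. A log2 difference smaller than its own SE is mostly not printed. The alternatives were RLE scaling, DESeq2 1.42.0, no filter, a block by title number, leaving out each library, leaving out the 8 set-apart libraries (own region's list below the midpoint of that list's range), plain library totals and Spearman's correlation. On simulated counts edgeR was tried for KI against WT in each region, the WT F test and WT STR against the other regions. DESeq2 was tried for KI against WT in PFc and the WT F test. The other tests were not tried on simulated counts. Between libraries of a group the chi-square of counts per degree of freedom was at least 6.51, so none was deposited again within its group. Libraries of different groups were not compared in this way. The title numbers were not taken to pair samples: deviations of same-numbered WT and KI libraries correlated over 0.1 in 2 of 18 pairs. Whether a number marks 1 animal across regions was not decided. Software was R 4.3.3 with limma 3.58.1, and Python 3.11.15 with matplotlib 3.10.9.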

Additional observations from a re-analysis of the deposited data

How the results depend on the processing

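Of the counts of called receptor genes, those for KI against WT in HP, PFc, Nac, STR and VTA and for genotype by region stayed at 0 under every alternative run. Elsewhere DESeq2 raised the count from 0 to 2 in SN, to 1 over all regions and to 2 for WT SN against the other regions. Leaving out the set-apart libraries raised it to 1 over all regions (with region as a term), to 4 for WT Nac (from 2), to 2 for WT SN (from 0) and to 5 for WT VTA (from 1). Leaving out 1 library at a time gave 0 to 1 for KI against WT in SN (1 without KI SN 3), 0 to 2 for WT Nac (0 without Nac 1 or Nac 3, 1 without HP 1 or HP 3), 2 to 4 for WT STR (2 without STR 3), 0 to 1 for WT SN (1 without Nac 2, VTA 1 or VTA 3) and 0 to 3 for WT VTA (0 without VTA 2, 3 without VTA 3). It gave 3 to 4 for WT HP, 3 to 5 for WT PFc and 5 to 7 for the F test.

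Among log2 differences at least as large as their SE, some changed sign, none of them called. Without the set-apart libraries they became 0.22 for Adra1a and -0.10 for Adra1d in Nac, -0.87 for Adra1d in SN, 0.040 for Adra1a in VTA and 0.021 for Adrb1 in WT Nac. With region as a term over all 36 libraries Adra1d was at 0.18. Among KI to WT differences smaller than their SE, leaving out the set-apart libraries also turned Adra1a in HP (to -0.64), Adrb1 in Nac (to 0.31) and SN (to -0.09), and Adra2b over all regions (from -0.16 to 0.13, and to 0.23 with region as a term over 36 libraries). Leaving out 1 library at a time, Adra1d ran from -0.46 to 3.89 in Nac (lowest without KI Nac 2) and from -1.54 to 2.09 in SN (lowest without KI SN 1), and Adra1a from -0.39 to 0.040 in VTA (highest without WT VTA 3). The cause of these changes was not tested. Plain library totals moved 4 means by more than their SD: Adra1a in KI VTA to 14.7 CPM, Adra1b in WT PFc to 27.5, Adra2b in KI STR to 4.90 and Adrb1 in KI STR to 11.5.

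A replicate block by title number moved no count of called receptor genes by over 1.5 times: it gave 6 for the F test and 0 for KI against WT in every region, with adjusted p of 0.12 for Adra1b and 0.068 for Adra2c in SN. Same-numbered WT and KI libraries correlated between -0.49 and 0.50, and same-numbered WT libraries of different regions over 0.1 in 14 of 45 pairs. Differently numbered libraries of different regions were not compared, so these values cannot decide whether a number marks 1 animal. The numbers were not taken to pair samples. Over all genes, edgeR's counts between genotypes moved from 0 to 60 in HP, 838 in VTA and 8 for genotype by region without the set-apart libraries, to 9 in SN and 1 in VTA with the block, to 5 over all regions with no filter, and to 1403 there with region as a term. Leaving out 1 library moved them from 0 to 550 in PFc (without KI PFc 1), 383 in SN (without KI SN 3), 2 in STR (without WT STR 2), and, leaving out a title number of 1 genotype, to 10 over all regions (KI number 2) and 2 for genotype by region (KI number 1). For WT against the other regions DESeq2 called 423 genes in Nac (edgeR 181), 2310 in SN (1194) and 1988 in VTA (1149), and leaving out the set-apart libraries gave 6474 in PFc (4295), 2447, 4161 and 5957. Adra2b did not pass the filter on low counts in HP and PFc. After the data were seen, shares of the summed TPM were also computed without the set-apart libraries: in WT Nac and WT VTA each moved by less than the SD over the 3 libraries, which includes the library left out.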
